A study of Mus musculus with 5 samples.

Results

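The Six-family genes encode homeodomain transcription factors, and the Eya genes encode coactivators with a phosphatase domain that bind Six-family proteins and act with them in the eye, ear, kidney, muscle and forebrain. They were examined for peaks of H2AK119ub and RYBP in mouse embryonic stem cells. The members were 9 genes, Six2, Six3, Six4, Six5, Six6, Eya1, Eya2, Eya3 and Eya4, of 21631 protein-coding genes. They were taken by name, and a peak was assigned to a member when it overlapped the mm10 gene body or the 2 kb on either side. These windows held 53 of the 24235 peaks of H2AK119ub in wild-type cells, 32 of the 20994 in DDX5 knockout cells and 12 of the 9564 RYBP peaks.

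H2AK119ub is a single ubiquitin on a lysine of histone H2A, added by Polycomb repressive complex 1 at genes that embryonic stem cells hold silent until they differentiate. RYBP belongs to the variant forms of this complex, which carry no chromobox subunit and in part find their targets through unmethylated CpG islands. Regulators of organ formation, the Six-family genes among them, are known Polycomb targets in embryonic stem cells. DDX5 is an RNA helicase of the DEAD-box family.

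All cells were of the mouse embryonic stem cell line MPI-II, cultured with feeder cells, serum, LIF, the MEK inhibitor PD0325901 and the GSK3 inhibitor CH99021. The groups were H2AK119ub in wild-type cells, H2AK119ub in DDX5 knock-out cells and RYBP in wild-type cells, the last with an antibody sold under the name DEDAF. Paired guides for a Cas9 nickase in exon 2 of Ddx5 gave the knockout, which is monoclonal and so stands for 1 clone. Each group had 1 library, so no difference has a replicate check and no test was made. The lists give peak positions and no height or read depth, so a shallower or less enriched library and a loss of the mark cannot be told apart. They give no expression level either, and so check neither the genotype nor the cell type. Over the genome the wild-type peaks of the mark covered 45.9 Mb and the knockout peaks 30.6 Mb, 66.6% of that length.

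H2AK119ub lay over 6 of the 9 members in wild-type cells: Six2, Six3, Six5, Six6, Eya2 and Eya4. Over all protein-coding genes the share with such a peak was 27.9%. The same 6 genes were marked in the knockout, where the share over all genes was 23.6%. No member was marked in 1 genotype alone, against 20.7% of all genes marked in both, 7.2% in the wild type alone and 3.0% in the knockout alone. RYBP lay over 6 members as well, Six2, Six3, Six4, Six5, Six6 and Eya2, against 37.6% of all genes. All 5 Six-family genes thus had RYBP and 4 of them the mark. Of the 4 Eya genes, Eya2 had both, Eya4 had the mark alone, and Eya1 and Eya3 had no peak in any list.

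**Figure D1:**
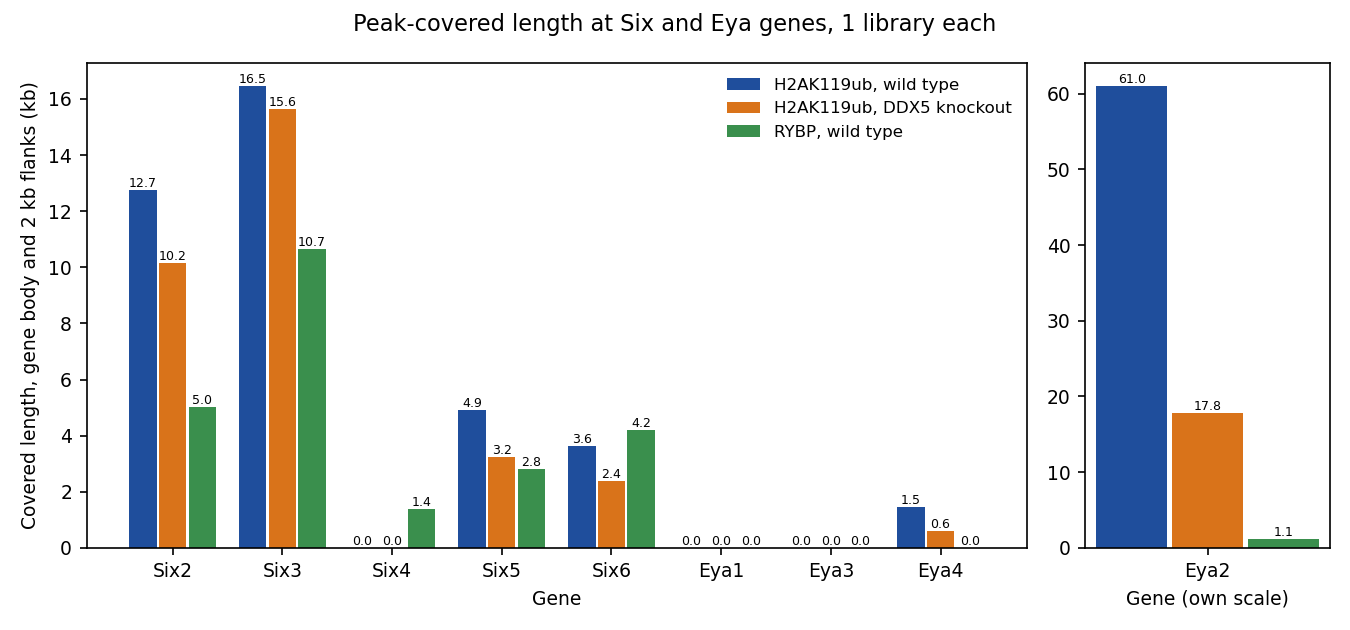
Length covered by peaks in the window of each gene (body and 2 kb flanks, in kb) in the 3 libraries, 1 bar per library, with Eya2 on a scale of its own. Six3 had 16459 bp of wild-type H2AK119ub and 15635 bp in the knockout, while Eya2 fell from 61019 to 17761 bp.

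Among members the order of wild-type covered length was Eya2 (61019 bp), Six3 (16459 bp), Six2 (12738 bp), Six5 (4927 bp), Six6 (3616 bp) and Eya4 (1473 bp). The knockout kept that order, from 17761 bp at Eya2 to 584 bp at Eya4. Relative to the length available, Six3 was the most densely covered, with 99.2% of its window under the mark in the wild type, followed by Six5 (61.5%), Six2 (43.2%), Six6 (40.1%), Eya2 (33.8%) and Eya4 (0.585%).

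Six3, a regulator of the forebrain and the eye, lay almost wholly inside a broad domain. A wild-type peak of 14106 bp (chromosome 17, 85607313 to 85621418) ran over the start site, and only 76 wild-type peaks of the genome, 0.314%, were as wide. After a short gap a second peak of 8798 bp followed (85621544 to 85630341). In the knockout the domain was listed as 5 peaks of 2415 to 6323 bp. They covered 15635 bp of the window, 94.3%, and 15510 bp of this lay under the mark in both genotypes. The mark at Six3 was therefore split into more peaks in the knockout and covered 0.95 of the wild-type length. Since the wild type already filled the window, a greater length could not have been seen there.

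RYBP at Six3 was spread over 5 peaks of 1214 to 3899 bp that together covered 10654 bp. By number of RYBP peaks it ranked at 32 among the 21631 protein-coding genes, and none of the 4393 genes of like length (within 1.5 times) had more peaks or more RYBP sequence. Of the RYBP sequence, 98.8% lay under wild-type H2AK119ub. The RefSeq span of Six3 (gene ID 20473, 85613608 to 85626191) begins upstream of its listed start site at 85620834, and 2 of the 5 peaks lay in that upstream stretch, where the antisense RNA gene Six3os1 overlaps it. Peaks there cannot be assigned to one of these genes. The start site itself lay 95 bp from the nearest RYBP peak and under the mark in both genotypes.

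Six2, which maintains the progenitors of the nephron, is the neighbour of Six3 on chromosome 17 (gene ID 20472, 85662736 to 85688254, minus strand). Its mark was concentrated at the start. A peak of 7942 bp (85679821 to 85687762) lay in the gene and another of 6496 bp (85688152 to 85694647) ran over the start site and upstream of it. In the knockout the first of these was listed as 3 peaks, of 1900, 1084 and 4029 bp, and the second as 1 peak of 4855 bp, which ended 99 bp short of the start site. Over the Six2 window the mark fell from 12738 to 10152 bp, 79.7% of the wild-type length, and 9259 bp were shared. In the flank past the gene end a wild-type peak of 1278 bp had no knockout counterpart, and in mid-gene a knockout peak of 641 bp had no wild-type one. RYBP lay over the Six2 start as a peak of 3910 bp, a width that 2.03% of RYBP peaks reach, and at the edge of the marked block as a second peak of 1258 bp. The long noncoding gene CJ186046Rik starts beside Six2 and shares the peaks at the start in all 3 lists.

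**Figure D2:**
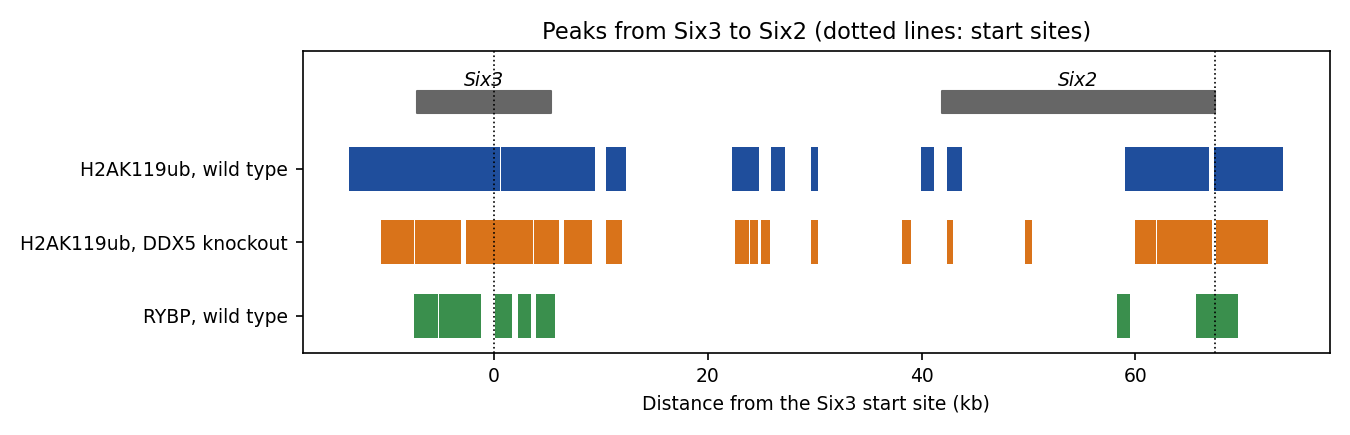
Peaks of the 3 libraries from Six3 to Six2, by distance from the Six3 start site in kb, with gene bodies in grey and start sites as dotted lines. H2AK119ub formed a block at each start site in both genotypes, split into more peaks in the knockout, and RYBP lay in these blocks or at their edges, with no peak in the space between the windows.

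Between the windows of the 2 genes lay 32544 bp that hold neither gene. There 6 wild-type peaks of the mark covered 26.5% and 7 knockout peaks covered 23.6%, and RYBP had no peak. From the Six3 window to the Six2 window the knockout had 88.5% of the wild-type length. In stretches of equal length below and above, coverage was lower, at 10.4% and 10.8% in the wild type. The knockout had 76.3% and 82.9% of the wild-type length there. Peaks of the 2 genes ran into these stretches. At Six3 a wild-type peak had 9811 of its 14106 bp in the window, and a knockout peak 1788 of 3093 bp. At Six2 these values were 2103 of 6496 bp and 1902 of 4855 bp. The rest of each peak was counted in the stretches, and their ratios were not computed without it. Over all of chromosome 17 the knockout had 55.7%. Six2 and Six3 share this neighbourhood and are not independent of each other.

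Six6, a paralog of Six3 that acts in the retina, hypothalamus and pituitary, is a short gene (gene ID 20476, chromosome 12, 72939882 to 72944899). In the wild type it had a peak of 2315 bp over the first part of the gene, 1 upstream of 1145 bp and 1 downstream of 1290 bp. In the knockout only the peak over the gene was listed, 2393 bp wide, and it contained all of the wild-type one. Over the window the mark went from 3616 to 2393 bp, 66.2% of the wild-type length. Over the gene body alone it was 2315 and 2393 bp, a ratio of 1.03, so the lower value at Six6 came from the flanks. RYBP had a peak of 2838 bp over the start and another of 1351 bp past the gene end. The second RYBP peak overlapped the downstream wild-type H2AK119ub peak, which had no knockout counterpart. Chromosome 12 as a whole had 63.4% of its wild-type length in the knockout.

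Six5, which lies beside the myotonic dystrophy kinase gene Dmpk, is shorter still (gene ID 20475, chromosome 7, 19094544 to 19098549). A wild-type peak of 4125 bp covered nearly the whole gene, and in the knockout it was 2717 bp wide. A second peak, of 2710 bp in wild-type cells and of 1091 bp in knockout cells, lay upstream, wholly inside Dmpk. It reached into the window with 802 and 528 bp. The mark over the window was 4927 and 3245 bp, 65.9%, with 56.6% over chromosome 7. With the body alone Six5 had 69.9%. With flanks of 5 kb it had 47.3%, from 4 wild-type peaks covering 8052 bp and 2 knockout peaks covering 3808 bp. RYBP had 1 peak of 2793 bp over the Six5 start, and 52.9% of it lay under wild-type H2AK119ub. The wild-type peak over the gene also touched Bhmg1, which overlaps the end of Six5. The upstream peaks lay inside Dmpk and were counted at Six5 only through its flank. The RYBP peak also reached into Dmpk.

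Six4, a Six-family factor of muscle development, had RYBP and no mark (gene ID 20474, chromosome 12, 73099609 to 73114031, minus strand). Its RYBP peak was 1397 bp wide (73112248 to 73113644) and lay over both listed start sites. The nearest H2AK119ub peak lay 47705 bp away in wild-type cells, and 47890 bp away in knockout cells. Mnat1, a gene for a subunit of the kinase complex of transcription factor TFIIH, overlaps this end of Six4, so the RYBP peak cannot be assigned to Six4 alone. RYBP without wild-type H2AK119ub was seen at 18.1% of all protein-coding genes, and both together at 19.6%, as at 5 members.

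Eya4, a gene needed for hearing and heart function, had 1 peak of the mark in its 251877 bp window (gene ID 14051, chromosome 10, 23102962 to 23350838, minus strand). It was 1473 bp wide in the wild type (23347888 to 23349360), a width that 44.1% of wild-type peaks reach. It began 583 bp inside the gene from the more upstream of the 2 start sites, and had no RYBP. The knockout peak was 584 bp wide, and 94.2% of knockout peaks were at least that wide. Covered length was 39.6% of the wild type, with 52.1% over chromosome 10. With peaks of at least 1 kb, or with windows at the gene ends alone, Eya4 was not marked in the knockout.

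**Figure D3:**
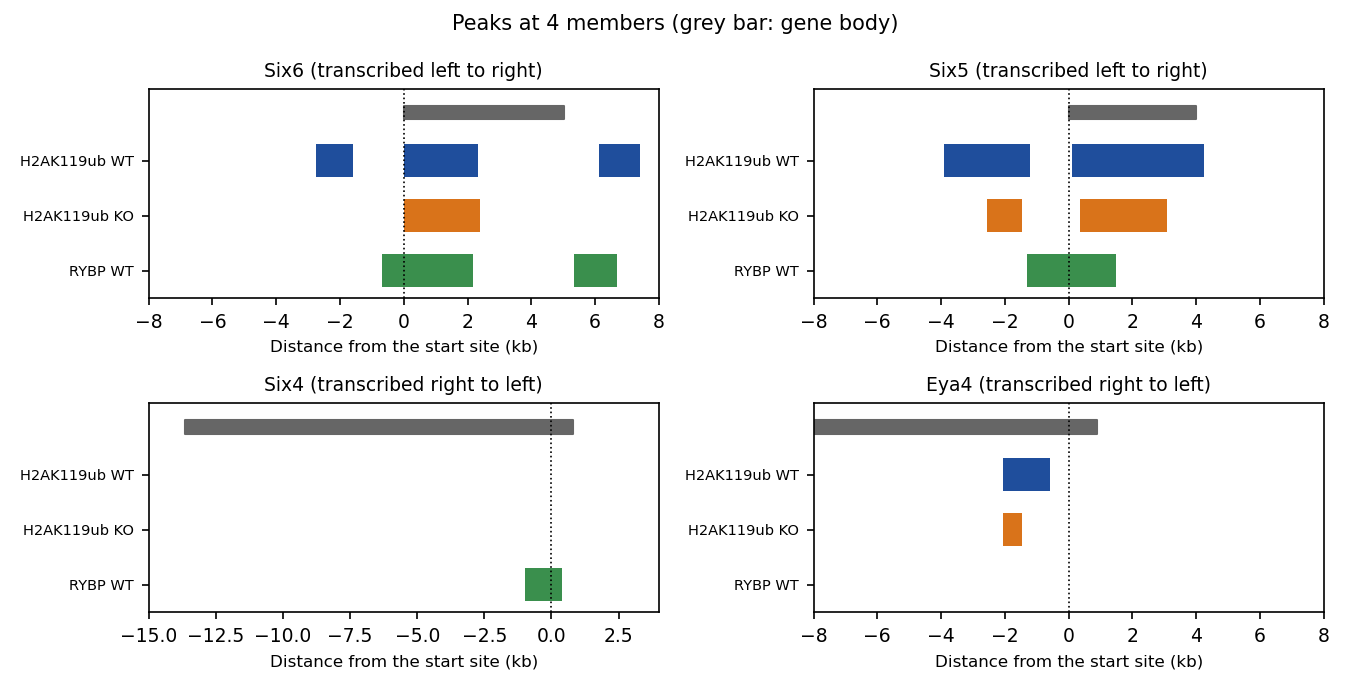
Peaks at Six6, Six5, Six4 and Eya4 by distance from the start site in kb, with the gene body in grey. Six6 and Six5 had RYBP over the start and the mark from 23 and 118 bp downstream of it, Six4 had RYBP alone, and Eya4 had H2AK119ub alone inside the gene.

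Eya1, which acts in the ear and kidney, and Eya3, a widely expressed member, had no peak. The nearest wild-type H2AK119ub peak lay 2787423 bp from Eya1 (gene ID 14048, chromosome 1, 14168953 to 14311035) and 69949 bp from Eya3 (gene ID 14050, chromosome 4, 132639025 to 132724765). In the knockout these distances were 1064070 and 68989 bp. RYBP came within 7032 bp of Eya3 and 194747 bp of Eya1. With positions alone, a signal under the authors' peak threshold is not seen, so these genes had no listed peak, which is not the same as no mark.

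Promoter windows of 300 bases (250 before to 50 after a start site, RefSeq, GRCm38.p6) were matched for 7 members, with 2 windows each at Six4 and Eya4. Windows for Eya1 and Eya2 were not used here. RYBP overlapped the window at Six2, Six4, Six5 and Six6 and began just downstream of it at Six3, and over all 32619 windows 22.1% had RYBP. The mark overlapped the windows of Six2, Six3 and Six6 in both genotypes, where wild-type peaks overlapped 9.58% of all windows and knockout peaks 7.34%. The 4 windows below show 4 of the states seen at the members. These are RYBP over the start with the mark just downstream of it (Six6), RYBP alone (Six4), neither (Eya3), and the mark downstream without RYBP (Eya4). Not shown are Six2, with both over the start in the wild type, and Six3, with the mark over the start and no RYBP in the window. CG dinucleotides, the letters to which CpG-island readers bind when unmethylated, are in capitals.
Six6, chr12:72939632-72939931, plus strand: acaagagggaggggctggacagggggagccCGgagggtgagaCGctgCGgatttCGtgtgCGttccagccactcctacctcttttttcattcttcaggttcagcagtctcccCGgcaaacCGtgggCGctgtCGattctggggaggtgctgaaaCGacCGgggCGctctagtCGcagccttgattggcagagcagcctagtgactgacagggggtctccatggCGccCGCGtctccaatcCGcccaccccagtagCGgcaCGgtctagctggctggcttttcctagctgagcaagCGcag
Six4, chr12:73113196-73113495, minus strand: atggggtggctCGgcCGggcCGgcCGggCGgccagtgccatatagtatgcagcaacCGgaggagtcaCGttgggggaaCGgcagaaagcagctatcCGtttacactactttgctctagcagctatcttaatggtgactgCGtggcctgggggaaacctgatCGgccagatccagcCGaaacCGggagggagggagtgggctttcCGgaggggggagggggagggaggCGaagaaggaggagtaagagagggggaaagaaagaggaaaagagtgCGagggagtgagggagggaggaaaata
Eya3, chr4:132638796-132639095, plus strand: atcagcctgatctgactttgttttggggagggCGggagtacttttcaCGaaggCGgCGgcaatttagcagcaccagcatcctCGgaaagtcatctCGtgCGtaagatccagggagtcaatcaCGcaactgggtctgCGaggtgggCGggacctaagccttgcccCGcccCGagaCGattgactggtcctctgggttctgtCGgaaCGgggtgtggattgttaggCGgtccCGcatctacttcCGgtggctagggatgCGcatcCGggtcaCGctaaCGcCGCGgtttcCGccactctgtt
Eya4, chr10:23349894-23350193, minus strand: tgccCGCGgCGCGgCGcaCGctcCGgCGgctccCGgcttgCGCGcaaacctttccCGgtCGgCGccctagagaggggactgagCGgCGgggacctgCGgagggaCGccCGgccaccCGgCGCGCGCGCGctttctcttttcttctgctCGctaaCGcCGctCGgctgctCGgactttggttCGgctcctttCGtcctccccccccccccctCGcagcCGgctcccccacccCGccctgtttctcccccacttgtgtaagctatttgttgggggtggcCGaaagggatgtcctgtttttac

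Six2 had 37 CG dinucleotides, a number that 5.62% of all windows reach. Eya4 had 36 and 28 in its 2 windows, numbers that 6.28% and 14.3% reach. RYBP covered the Six2 window and had no peak at Eya4. Eya3 had 25 with no RYBP, while Six6 had 20, Six5 had 17, Six4 had 16 and 15, and Six3 had 14. Over all windows the median was 24 where RYBP lay and 5 where it did not. The windows of Eya3 and Eya4 thus held at least as many as the median window with RYBP.

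The windows were also searched on both strands for 4 short words. TCAGGTT, the core of a site that Six-family proteins bind, was found at Six6 and in 1 window of Six4, and in 4.1% of all windows. TGACAG, the core bound by MEIS homeodomain proteins, was found at Six2, Six3, Six5 and Six6, and in 18.9% of all windows. CCAAT, the box bound by NF-Y, was found at Six2, Six3, Six6 and in 1 window of Six4, and in 37.6% of all. CATGG was found at Six2 and Six6, and in 39.3% of all.

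All 21 pairs of the 7 members were then compared for the longest run of bases in common, which had 8 to 13 bases. The longest, between Six3 and Eya4, was nearly all C and was in 47 of the 32619 windows, and a run of 12 bases common to Eya3 and Eya4 was in 5. Six2 and Six6 had a run of 12 bases in common, with another of 11 just upstream of it. The first holds CATGG and the second TGACAG. In Six2 the 11-base and the 12-base run began at -167 and -155 from the start site, and in Six6 at -51 and -37. The 11-base run was in 16 windows and the 12-base run in 14. Both were in 5 windows, those of Six2, Six6 and CJ186046Rik, whose windows overlap that of Six2. Six6 and Six3 shared a further run of 11 bases, found in 12 windows. The stretches are printed because they join the 3 members whose windows carried the mark in both genotypes, with shared runs in capitals. In Six2 and Six3 the stretch itself lay under the mark in both genotypes. In Six6 it lay upstream of the mark, which began 23 bp past the start site in the wild type and 8 bp past it in the knockout. The stretches were picked after the sequences had been compared, and a match is a description and not a binding site.
Six2, chr17:85688392-85688427, minus strand: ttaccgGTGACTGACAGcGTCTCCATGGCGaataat
Six6, chr12:72939805-72939862, plus strand: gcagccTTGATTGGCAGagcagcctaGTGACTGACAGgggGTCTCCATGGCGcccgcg
Six3, chr17:85620675-85620697, plus strand: tcagtaTTGATTGGCAGggctga

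Eya2, an Eya family member of muscle and sensory progenitors, differed in form from the Six-family genes (gene ID 14049, chromosome 2, 165595028 to 165771727). Its 176700 bp and their flanks were dotted from end to end with 41 wild-type peaks of 562 to 3681 bp, with a median of 1306 bp. This number of peaks ranked at 15 among all protein-coding genes, and 40 of them lay in or reached the gene body. The 41 peaks covered 61019 bp, 33.8% of the window. Cut into 4 equal stretches from low to high coordinate, the window was covered at 33.6%, 26.8%, 32.5% and 42.2%. RYBP had 1 peak of 1146 bp, over the lower end of the gene.

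In the knockout Eya2 had 17 peaks of 445 to 1960 bp, with a median of 957 bp. They covered 17761 bp, 29.1% of the wild-type length, against 60.8% over chromosome 2. Of the 4467 protein-coding genes marked in both genotypes, 9.27% had as low a ratio. The 4 stretches were covered at 11.1%, 8.15%, 8.39% and 11.6%, so the lower coverage ran through the whole gene. A knockout peak overlapped 13 of the 41 wild-type peaks, 31.7% (Wilson 95% interval 19.6% to 47.0%, for counting error alone), while 15 of the 17 in the knockout lay on a wild-type peak. Over the windows of all protein-coding genes these shares were 52.9% of 17339 and 71.3% of 15042 peaks. The 13 were wider, with a median of 1523 bp, than the rest of the 41, with 1100.5 bp.

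**Figure D4:**
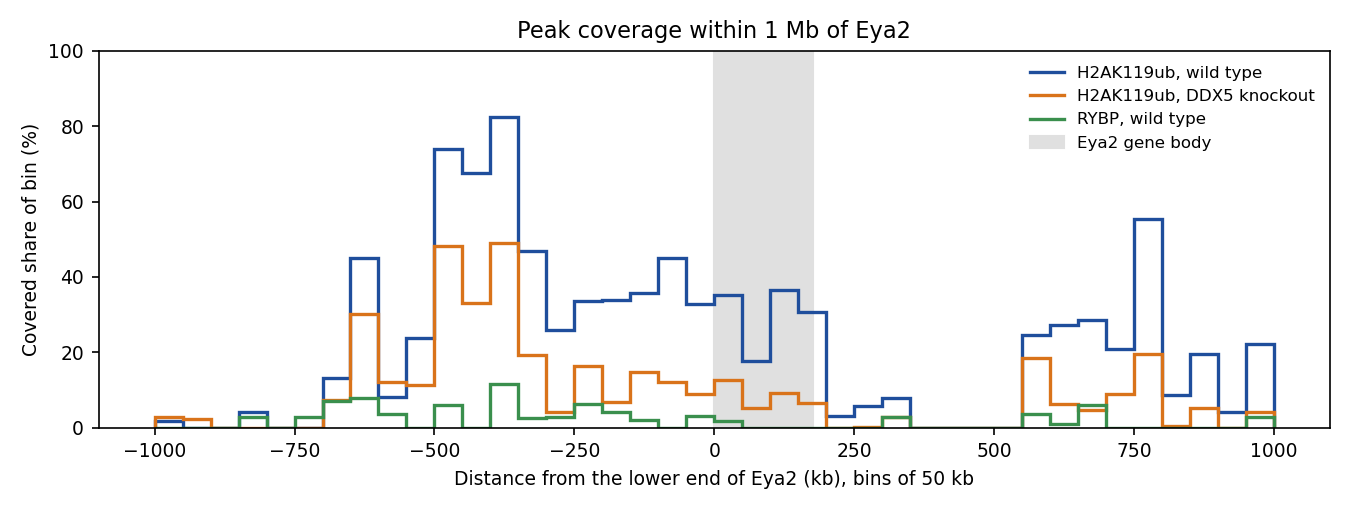
Share of each 50 kb bin covered by peaks, in percent, within 1000 kb of the lower end of Eya2, with the gene body in grey. Wild-type coverage was high from the gene down to lower coordinates, dropped past its upper end and rose again from 550 kb. In the knockout it was lower over the gene and in most marked bins on either side.

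The pattern was not limited to the gene. In the 180700 bp below the Eya2 window the mark covered 36.6% in 42 wild-type peaks and 10.4% in 18 knockout peaks, so the knockout had 28.3% of the wild-type length there and 29.1% over Eya2. Above the window it covered 4.67% and 0.885%. The dense stretch thus ended near the upper end of Eya2 and continued below its lower end, over Slc2a10 and into Slc13a3, genes for a glucose transporter and a dicarboxylate transporter. Slc13a3 went from 26965 to 8066 bp, 29.9%, while Slc2a10 had 8333 and 6026 bp, 72.3%. The bin with the highest coverage, from 400 to 350 kb below Eya2, had 82.3% under wild-type peaks and 49.1% under knockout peaks. The bin from 600 to 550 kb below went the other way, with 8.13% and 12.2%. So did sparsely covered bins farther off, with 1.84% and 2.89% from 1000 to 950 kb below and 0.0% and 2.24% from 950 to 900 kb below. A further dense stretch lay 550 to 800 kb above the lower end of Eya2. Its bins had 21.0% to 55.3% under wild-type peaks and 4.82% to 19.7% under knockout peaks.

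Set side by side, covered length was lower in the knockout at all 6 marked members, by 1.5 times or more at 4 of them (Six5, Six6, Eya2 and Eya4) and higher by that much at none. Over protein-coding genes marked in both genotypes, 43.5% were lower and 6.45% higher by this size. Six5 and Six6 lay just past the limit, and with gene bodies alone the count was 2. The median over the 6 members was 66.0% of the wild-type length, and over all genes marked in both it was 71.8%. These values over all genes, and the ranks given below, take in every chromosome. They were not computed for the members' chromosomes alone. On the chromosomes that hold members the knockout had 52.1% to 63.4% of the wild-type length, against 66.6% over the genome. The other chromosomes together thus kept a greater share, and the background is not a like one. Summed over the members the knockout had 49.7% of the wild-type length. Eya2 decided this sum, and without it the value was 81.6%. Ratios as low as that of the member were seen at 16.9% of genes for Eya4, 42.7% for Six5, 43.1% for Six6, 58.3% for Six2 and 73.9% for Six3.

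**Figure D5:**
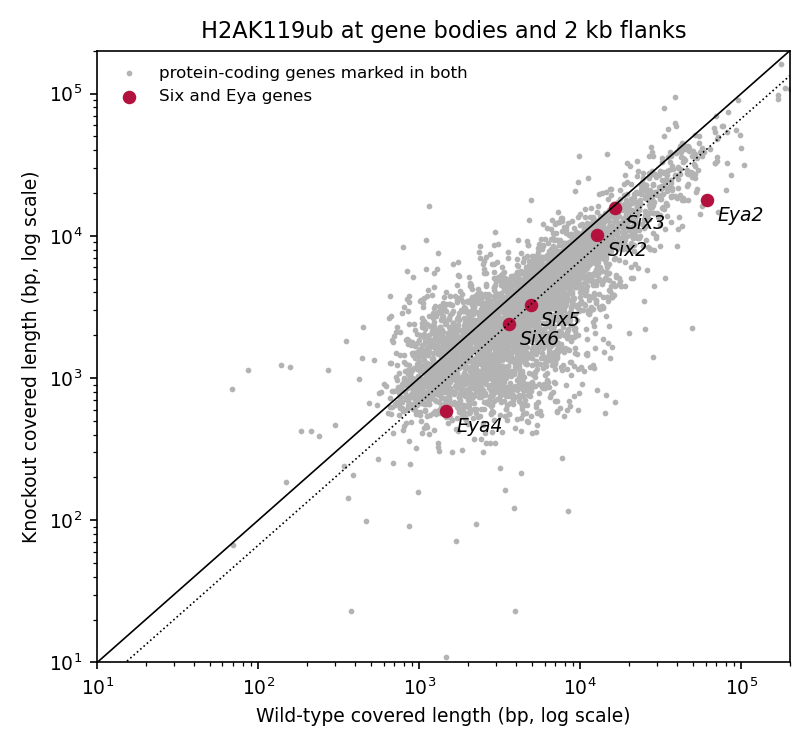
Covered length of H2AK119ub in bp in the wild type and the knockout, both on log scales, for 4467 protein-coding genes marked in both genotypes (grey) and the 6 marked members (red). The solid line marks equal lengths and the dotted line a length lower by 1.5 times, and Eya2 (29.1%) and Eya4 (39.6%) lie farthest below it among the members.

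The RYBP peaks of the members lay mostly on the mark. Of the 12 RYBP peaks, 11 overlapped a wild-type H2AK119ub peak, 91.7% (Wilson interval 64.6% to 98.5%), the exception being the peak at Six4. Over the windows of all protein-coding genes this share was 46.7% (45.6% to 47.8%) of 8455 RYBP peaks. Of the same 12 peaks, 9 overlapped the mark in the knockout, 75.0% (46.8% to 91.1%), against 40.8% (39.7% to 41.8%) over all gene windows. Those that overlapped it only in the wild type were the smaller peaks at Six2 and Six6. Measured in base pairs, 77.9% of the RYBP sequence of the members lay under wild-type H2AK119ub, and 36.6% over all genes. Peaks of 1 gene share their source, so the 12 are not independent. Of them, 5 lay at Six3, where 99.2% of the window was under the wild-type mark, so an overlap there was nearly given. The shares over all genes also take in RYBP at genes without the wild-type mark, 18.1% of all protein-coding genes. The contrast therefore in part restates that most members with RYBP were marked.

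Seen from the mark, 10 of the 53 wild-type peaks overlapped RYBP, 18.9% (10.6% to 31.4%), against 27.6% (26.9% to 28.3%) over all gene windows. Eya2 decided this share, with 2 of its 41 peaks on RYBP, 4.88%. At the other members 8 peaks overlapped RYBP and 4 did not. Peaks of 1 gene are not independent, so the intervals give counting error alone. A knockout counterpart was found for 9 of the 10 peaks with RYBP, 90.0% (59.6% to 98.2%). The other 43 lay away from RYBP, 39 of them in Eya2, and 13 had a counterpart, 30.2% (18.6% to 45.1%). Over all gene windows the shares were 76.6% (75.3% to 77.7%) of 4784 peaks with RYBP and 43.9% (43.1% to 44.8%) of 12555 without. Peaks with RYBP were wider, with medians of 3417.5 and 1293 bp at the members and 2031.5 and 1286 bp over all gene windows. The part of width in the difference was not tested. Without Eya2, 7 of 8 peaks with RYBP and 2 of 4 without it had a counterpart, too few for a comparison.

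Other genes of the pathway, or of the organs in which the members act, were counted in the same way. The lists were chosen with earlier results of these data known. Of 22 such genes, 16 were marked in wild-type cells, the same 16 were marked in knockout cells, and 16 had RYBP. Over all protein-coding genes these shares were 27.9%, 23.6% and 37.6%. Covered length was lower by 1.5 times or more at 4 of the 16 marked genes (Sobp, Otx2, Pax8 and Sall1) and higher by that much at none. Over all protein-coding genes marked in both genotypes, 43.5% were lower and 6.45% higher by this size. The sum over the 22 genes was 76.9% of the wild type, and over all protein-coding genes it was 66.7%. Of the cofactors, 3 of 7 were marked. Tle2, a Groucho corepressor, had 14824 and 11279 bp, and its relative Tle3 had 2427 and 2818 bp. Dach1, Dach2, Tle1 and Tle4 had no mark, and Dach1 and Tle1 had RYBP alone, as Six4 did.

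Of the regulators of the eye field and retina, 5 of 6 were marked. Lhx2, which is needed for the optic vesicle, went from 22034 to 20426 bp, and Otx2, a forebrain and retina factor, had 4861 and 1414 bp. Hesx1, a regulator of the pituitary and forebrain, had RYBP alone. Over this list the knockout had 85.5% of the wild-type length. Of the regulators of kidney, ear and muscle, 8 of 9 were marked. Pax7, the factor of muscle stem cells, had 57268 and 41147 bp, and Pax8, of kidney and thyroid, had 2707 and 1025 bp. Myog, the gene for myogenin, had no peak in any list. Over that list the knockout had 75.7%.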

How the data were processed

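The authors' deposited files are peak lists, 1 for each of 3 libraries, so peaks were called per library. Bowtie2 2.2.5, MACS 1.4 and the build mm10 are named, per the submitters' processing notes. Not given in the sources used here is what each tool did, how peaks were thresholded and whether input served as control. Input was sequenced in 2 further libraries, not analysed here. The deposited score column is 0 for every peak and was not used. Depth is unknown.

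Groups came from the sample titles. Gene spans came from RefSeq GRCm38.p6, the assembly of mm10, on chromosomes 1 to 19 and X. All 9 members and 22 pathway genes were matched by symbol. Genes named were the members, protein-coding neighbours sharing a peak, and in each pathway list those with the longest and shortest wild-type covered length and any marked in 1 genotype alone. Others were named after their values were seen. Peaks overlapped when they shared at least 1 bp. Positions are counted from 1. The members and lists were chosen with earlier results of these data known. Code in Python 3.11.15 (pandas 2.3.3, scipy 1.17.1) was tested on simulated data. The words searched in promoters, the shared promoter runs, the stretches in and around Eya2, the split by RYBP and the ranks were chosen after values had been seen. Alternatives were other flanks, gene-end windows, peaks at least 50% inside, peaks of at least 1 kb, merged peaks and equal numbers of the widest peaks.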

Additional observations from a re-analysis of the deposited data

How the results depend on the processing

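In all 7 alternatives 6 members stayed marked in the wild type, and 5 or 6 were marked in the knockout, the loss being Eya4. The number of members with RYBP was 6 in every setting that touched the RYBP list. The summed ratio of covered length, 0.497, was 0.492 with gene bodies alone, 0.522 with 5 kb flanks, 0.651 with windows at the gene ends, 0.48 with peaks at least 50% inside, 0.467 with peaks of at least 1 kb, 0.469 with peaks within 2 kb merged, 0.533 with equal numbers of the widest peaks and 0.816 without Eya2. With gene bodies alone 2 members were lower by 1.5 times or more, and the ratio at Six6 was 1.03. With peaks at least 50% inside, Six6 (0.746) was no longer lower by that size, and with merged peaks Six3 was at 1.0. With merged peaks, 7 of 8 RYBP peaks overlapped the mark, fewer by construction. The counts of lower members and of overlaps, the ratios of single members and the sum without Eya2 were added after seeing the data. No paired analysis was possible because each group had 1 library and the labels give no replicate numbers. Peak lists without depth limit every comparison of lengths.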

Other observations

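Genes with many separate wild-type peaks, like Eya2, were looked at together. Of protein-coding genes marked in both genotypes, 83 had at least 20 wild-type peaks. Their knockout length was 56.1% of the wild type in the median, from 4.5% to 244.0%, and Eya2 (29.1%) was the eighth lowest. This group was chosen after the value of Eya2 had been seen and is given as a description.

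In the knockout 3 of the 32 peaks at the members had no wild-type counterpart, 1 in Six2 of 641 bp and the others in Eya2. The share with a counterpart was 90.6% (Wilson interval 75.8% to 96.8%), against 71.3% over the windows of all protein-coding genes. Of the 32 peaks, 17 lay in Eya2, and at Six3 and Six2 several knockout peaks lay on the same wild-type peak. The peaks are thus not independent, and the interval gives counting error alone. The 3 peaks without a counterpart had a median width of 641 bp, against 1218 bp for those with one.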
